A study of Mus musculus with 2 samples.

Results

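The cells described here are the 874 cells with the highest transcript share of 7 genes of G2 and mitosis, out of 8734 cells of mouse subcutaneous tumours that carried a transcript of Krt20 and none of Ptprc, and out of 16465 cell barcodes in all. They were chosen by their own readout. Barcodes needed 300 genes or more and no more than 20% of their UMIs (unique molecular identifiers, which count captured transcripts) from mitochondrial genes, cells with at least 1 UMI of the keratin gene Krt20 and 0 UMIs of the leukocyte gene Ptprc (CD45) formed the gate, and the share of Cdc20, Ccnb1, Plk1, Cenpf, Cenpe, Aspm and Kif20a in the UMIs of each cell was the score. The 10% of gated cells with the highest score, over both libraries together, form the G2/M group. The lowest score inside the group and the highest outside it were both 0.153% of UMIs when rounded, and 267 gated cells lay within 10% of that limit. The group held 346 of 4613 gated cells from mice on a diet without serine and glycine (named SG in the labels) and 528 of 4121 from mice on a control diet.

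The study read gene expression and T cell receptors of single cells, with immune profiling kits of 10x Genomics, from tumours grown under the skin of mice. One library (SG) came from mice whose diet lacked serine and glycine, the other from mice on the control diet. Each diet is 1 library, and the labels name no mouse strain, tumour line or age and no number of mice behind a library. Every diet comparison below therefore sets 2 libraries against each other with no replicate check, and every interval is an exact 95% interval that covers counting error only.

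A cell that has copied its DNA passes through G2, enters mitosis when Cdk1 with cyclin B becomes active, attaches its chromosomes to the spindle through kinetochores, and leaves mitosis once the anaphase-promoting complex with Cdc20 marks securin and cyclin B for destruction. Many genes of this phase share promoter elements, the CHR element and CCAAT boxes, through which the DREAM and MuvB complexes and the factor NF-Y are known to act, so that their transcripts appear late in the cell cycle and are low in resting cells. Serine and glycine feed the one-carbon units from which dividing cells build purines and thymidylate.

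The promoters of 4 score genes are shown because they hold, or lack, the letters of those elements. They are RefSeq sequences on GRCm38.p6 from 250 bases before to 50 bases after the start site, read 5′ to 3′ on the strand of the gene, with every CHR core (TTTGAA) and CCAAT box in capitals. Both motifs were searched on both strands in these spellings only, and they share no position. Cdc20 activates the anaphase-promoting complex and lies at chr4:118437294-118437593 on the minus strand, Plk1 is the polo-like kinase at chr7:122159185-122159484 on the plus strand, Cenpf is a kinetochore protein at chr1:189688037-189688336 on the minus strand, and Ccnb1 is cyclin B1 at chr13:100786437-100786736 on the minus strand.
Cdc20: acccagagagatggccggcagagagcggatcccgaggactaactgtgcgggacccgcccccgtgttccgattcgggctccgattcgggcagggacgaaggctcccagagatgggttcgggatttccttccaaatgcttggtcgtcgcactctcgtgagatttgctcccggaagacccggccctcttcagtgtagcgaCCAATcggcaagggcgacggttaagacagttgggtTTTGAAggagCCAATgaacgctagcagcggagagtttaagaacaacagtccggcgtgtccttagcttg
Plk1: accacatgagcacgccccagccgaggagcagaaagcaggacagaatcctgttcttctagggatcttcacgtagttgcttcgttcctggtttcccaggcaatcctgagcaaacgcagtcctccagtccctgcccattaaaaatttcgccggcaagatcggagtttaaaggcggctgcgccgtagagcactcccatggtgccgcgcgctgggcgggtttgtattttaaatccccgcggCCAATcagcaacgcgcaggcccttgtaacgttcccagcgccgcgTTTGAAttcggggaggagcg
Cenpf: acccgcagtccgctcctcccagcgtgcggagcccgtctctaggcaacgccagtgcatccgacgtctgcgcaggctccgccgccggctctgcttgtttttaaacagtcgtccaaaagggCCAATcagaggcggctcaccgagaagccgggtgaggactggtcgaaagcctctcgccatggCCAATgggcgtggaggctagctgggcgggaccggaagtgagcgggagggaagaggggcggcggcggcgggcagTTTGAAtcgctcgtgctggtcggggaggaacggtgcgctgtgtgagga
Ccnb1: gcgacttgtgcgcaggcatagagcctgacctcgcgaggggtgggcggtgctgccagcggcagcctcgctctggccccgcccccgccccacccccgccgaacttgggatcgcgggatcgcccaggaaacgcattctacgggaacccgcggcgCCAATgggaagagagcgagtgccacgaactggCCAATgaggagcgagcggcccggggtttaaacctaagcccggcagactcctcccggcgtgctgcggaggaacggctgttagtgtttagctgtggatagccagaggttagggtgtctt
The TTTGAA letters stand 18 bases before the start in Cdc20, 31 bases after it in Plk1 and 3 bases after it in Cenpf, and none lie in this window of Ccnb1, which holds 2 CCAAT boxes. Of the 7 score genes, 6 had a promoter in the table (Kif20a is named only). All 6 held CCAAT letters and 4 of them held TTTGAA. A match of letters is a description of the sequence and not a binding site. A lack of TTTGAA likewise does not show that the element is absent.

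The label of the cells was checked first. Genes of this phase outside the score were also high in the G2/M group, which was chosen from the same cells' transcripts. Ube2c, the ubiquitin-conjugating enzyme of the anaphase-promoting complex, took 1945 CPM (counts scaled to a common total, from the UMIs summed over the cells of a class) in the group against 277 CPM in the other gated cells of the SG library, and 1780 against 322 CPM in the control library. The share of cells with UMIs of the score genes is fixed in part by the choice of members. All 7 had a UMI in 295 of 346 members (85.3%) of the SG library, against 401 of the other gated cells there (9.40%), and in 460 of 528 members (87.1%) of the control library, against 515 of the other gated cells (14.3%). A member held a median of 73 score UMIs (2 to 213) in the SG library and 71 (2 to 274) in the control library.

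The word tumour in the label is not shown by epithelial genes. In the members of both libraries Epcam, Krt19, Cldn4 and Cldn7 had 0 UMIs, Krt8 had 1 and 3 UMIs, Krt7 had 1 UMI in each, and Cdh1 (E-cadherin) had 2 in each. Krt18 was found in 28.3% of SG and 39.6% of control members. The mesenchymal genes were present instead: Vim (vimentin) had a UMI in 100% of members of both libraries, the transcription factor gene Twist1 in 94.8% and 92.8%, and Prrx1 in 91.3% and 94.7%. The cells are therefore called by their gate, Krt20+ Ptprc-.

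Krt20 itself is no clean border. Of the Ptprc+ cells, 161 of 1191 (13.5%) in the SG library and 85 of 1167 (7.28%) in the control library also had a Krt20 UMI, at a median of 9520 and 7578 UMIs per cell. Among cells with neither gene, 71 of 2109 (3.37%) and 200 of 2974 (6.72%) reached the same score. Markers of immune cells were low in the group: the 9 T and NK cell markers together took 0.351 CPM in SG and 0.183 CPM in control members, and the 10 macrophage and monocyte markers 76.5 and 61.1 CPM, against 75.0 and 85.7 CPM in the other gated cells. No member carried a T cell receptor contig, and of the 104 barcodes that the libraries share none was a member.

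Both libraries were of similar size. The SG library held 7999 barcodes with 157234945 UMIs and the control library 8466 barcodes with 161332426 UMIs, at medians of 16770 and 17540 UMIs per barcode, and the filter kept 7913 and 8262 cells. Members were the deeper cells of the gate: their median was 32440.5 UMIs in the SG library, 1.44 times that of the other gated cells there (22571), and 30167 UMIs in the control library, 1.23 times that of the others (24572). They also showed more genes, a median of 5350.5 against 4355 in the SG library and 5344 against 4709 in the control library. Mitochondrial UMIs took a median of 1.89% in members and 2.06% in the others in the SG library, and 1.73% and 1.85% in the control library.

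The first comparison asked how large the G2/M group was under each diet. It made up 7.50% (6.76 to 8.30) of the gated cells of the SG library and 12.8% (11.8 to 13.9) of those of the control library, a ratio of 0.585 (0.510 to 0.672). The SG library gave 52.8% of the gated cells and 39.6% of the members. Cells with no UMI of any score gene formed 47.9% of the gate (2209 cells) in the SG library and 36.1% (1488 cells) in the control library. Because the rule takes 10% of the pooled cells, the group's total is fixed and only its split between the libraries is a measurement.

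The share was highest in the most deeply sequenced cells, and within each depth class the SG share was the lower. Under 10000 UMIs the shares were 4.31% and 9.49%, a ratio of 0.454 (0.243 to 0.845). From 20000 to under 30000 UMIs they were 5.08% and 10.4%, a ratio of 0.486 (0.362 to 0.648). From 40000 UMIs up they were 18.7% and 26.7%, a ratio of 0.702 (0.537 to 0.917). The other 2 classes gave ratios of 0.568 and 0.674, so that all 5 intervals lay below 1. Over 17 other ways of drawing the gate or the score the ratio ran between 0.580 and 0.693.

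**Figure D1:**
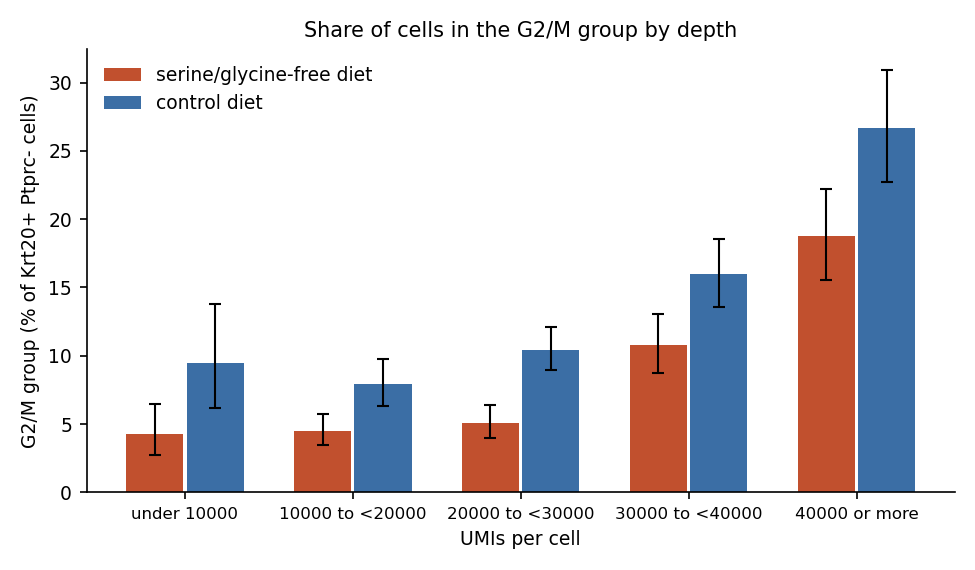
Share of Krt20+ Ptprc- cells in the G2/M group (vertical axis, percent) by UMIs per cell (horizontal axis, 5 classes) in the SG and the control library; bars are shares and whiskers exact 95% intervals for counting error. The SG bar is the lower of the pair in every class, at 4.31% against 9.49% in the shallowest and 18.7% against 26.7% in the deepest.

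The size of the S phase group was set beside it. Gated cells in the top 10% for 12 S phase genes numbered 387 (8.39%) in the SG library and 487 (11.8%) among those of the control library, which is a ratio of 0.710 (0.620 to 0.813). The 2 groups hardly met: 2 of 346 SG members (0.578%) and 3 of 528 control members (0.568%) were also in the S phase group, against 9.02% and 13.5% of the other gated cells. Together they took up 15.8% of the SG gate and 24.6% of the control gate.

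Next, the score genes themselves, which the rule used, are given as levels. Cdc20 stood at 565 CPM in SG members and 607 CPM in control members, and at 55.2 and 79.7 CPM in the other gated cells. Ccnb1 stood at 298 CPM in SG members and 299 CPM in control members, and at 31.3 and 43.7 CPM in the others. Plk1 took 212 CPM in SG members and 223 CPM in control members, and 23.02 and 33.9 CPM in the others. Inside the group the libraries lay close together for these 3 genes, while outside it the SG library was the lower for each. Cenpf, whose protein coats kinetochores, took 679 and 660 CPM in SG and control members and 60.8 and 79.1 CPM in the others. Aspm, a spindle pole protein, took 156 and 164 CPM in SG and control members and 16.5 and 20.6 CPM in the others. Cenpe, the kinetochore motor, and Kif20a, a kinesin of cytokinesis, had ratios of SG over control members of 1.002 (0.956 to 1.05) and 0.994 (0.948 to 1.04).

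Shares of cells with a UMI were set beside those of cells outside the gate. In Ptprc+ C1qa+ cells without Krt20, macrophage-type cells that may also divide, Plk1 had a UMI in 7.21% of 458 SG and 11.98% of 484 control cells once every cell was thinned to 5000 UMIs, with median depths of 11073.5 and 10704 UMIs before thinning. In the gated cells outside the G2/M group it had one in 7.24% and 10.2% after the same thinning, and the unthinned shares were 20.7% and 29.3%. For Plk1 the shares of the 2 cell classes thus lay close together, as they did for Ccnb1 and Cenpe. For Cdc20, Cenpf, Aspm and Kif20a the gated cells outside the group had the higher share in both libraries. Nothing is read from the share in the gated cells outside the group. Those cells are a mixture, since 2209 and 1488 of them had no UMI of any score gene. The level of free RNA was not measured, and its part in these shares was not tested. Among members the thinned share was 65.9% (60.6 to 70.9) in the SG library and 63.5% (59.2 to 67.7) in the control library, with 6 and 10 members left out as too shallow, and the unthinned shares were 96.0% and 95.6%. Cdc20 had a UMI in 94.4% and 94.0% of thinned members and in 8.95% and 13.8% of the thinned macrophage-type cells. In the thinned gated cells outside the group it had one in 14.6% and 20.6%.

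The next comparison set the members against the rest of the gate over all 5508 genes that averaged 20 CPM or more. Since the score chose cells by these same transcripts, it describes the group and tests nothing. On the scale of log2(CPM + 5), 156 genes (2.83% of those measured) were at least 2-fold higher in the members of both libraries, and 7 genes (0.127%) at least 2-fold lower. The median gene differed by 0.04 in the SG and 0.02 in the control library. The 156 include the 7 score genes, which the rule itself used. Of the 156, 75 belonged to 6 lists of mitotic genes, which together name 107 genes.

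**Figure D2:**
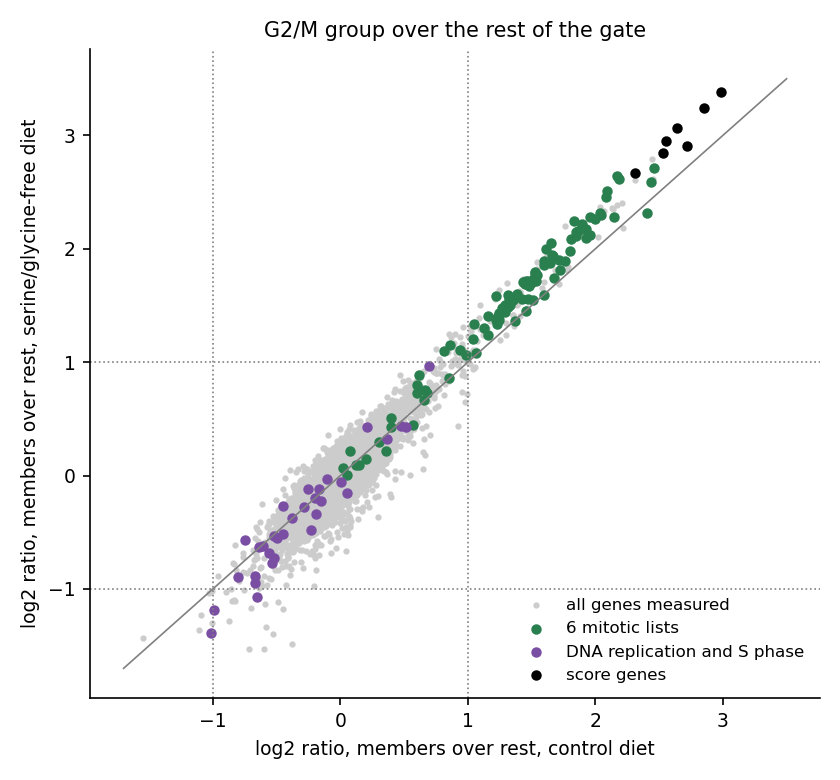
Log2 ratio of the G2/M group over the rest of the gate in the SG library (vertical axis) against the control library (horizontal axis) for 5508 genes, with the score genes in black, 6 mitotic lists in green and DNA replication genes in purple; dotted lines mark 2-fold. The score genes lie at the upper end, between 2.67 and 3.38 in the SG library, and the purple DNA replication genes run down to -1.39.

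Among the kinases and cyclins that drive entry into mitosis, 14 of 16 measured genes (17 listed) were at least 2-fold higher in both libraries, with medians of 1.68 and 1.47 (log2, SG and control). Aurka, the kinase of the spindle poles, took 157 CPM in members and 19.7 CPM in the rest of the SG library, and 193 and 30.9 CPM in the control library. Cdc25c, the phosphatase that switches on Cdk1, took 91.1 against 10.9 CPM and 94.0 against 13.3 CPM. Ccna2 (cyclin A2) took 307 against 62.2 CPM and 346 against 89.0 CPM. The exceptions were the 2 kinases that hold Cdk1 in check: Wee1 had log2 ratios of 0.67 and 0.66 and Pkmyt1 of 0.09 and 0.15.

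The spindle and the cleavage machinery stood highest of the lists outside the score. All 14 measured chromosomal passenger and cytokinesis genes passed 2-fold in both libraries (medians 1.90 and 1.63). Prc1, which bundles the central spindle, took 398 CPM in members and 76.7 CPM in the rest of the SG library, and 395 and 92.2 CPM in the control library. Kif20b took 124 against 18.5 CPM and 126 against 25.9 CPM. Of the spindle motors and microtubule proteins 17 of 20 passed (medians 2.10 and 1.82), among them Hmmr, a spindle protein that also binds hyaluronan, at 163 against 22.6 CPM and 153 against 29.6 CPM. Kif2c, a kinesin that takes microtubules apart, took 71.8 against 10.4 CPM and 80.1 against 15.8 CPM.

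Kinetochore and checkpoint genes were more mixed. At the kinetochore and centromere 13 of 19 measured genes (25 listed) passed, with medians of 1.45 and 1.29. Cenpa, the histone that marks the centromere, took 583 CPM in members and 98.2 CPM in the rest of the SG library, and 575 and 131 CPM in the control library. The spindle checkpoint had 6 of 10 genes past 2-fold (medians 1.37 and 1.19). Knl1, the platform for the checkpoint kinases, took 128 against 30.5 CPM and 139 against 39.0 CPM. Zwint, which binds Knl1, was nearly level, at 82.0 against 81.8 CPM and 94.8 against 91.2 CPM.

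The list of the anaphase-promoting complex and securin was mixed. It passed in 7 of 18 genes, with medians of 0.37 and 0.31. Among the highest were Ube2c, given above, and Espl1 (separase), with log2 ratios of 1.41 in both libraries. Pttg1 (securin) took 483 against 90.8 CPM in the SG library and 488 against 107 CPM in the control library, and Fzr1, the activator of late mitosis, took 109 against 32.7 CPM and 107 against 38.2 CPM. The core subunit Anapc13 had log2 ratios of -0.16 and -0.04. In the condensin, cohesin and chromosome structure list 11 of 18 genes passed (medians 1.39 and 1.23). Top2a, the topoisomerase that untangles chromosomes, took 387 against 114 CPM and 375 against 132 CPM, and Mki67, the proliferation marker that coats mitotic chromosomes, took 240 against 69.7 CPM and 239 against 79.1 CPM. Of the nuclear envelope genes 2 of 7 passed, among them Lmnb1 (lamin B1) with log2 ratios of 1.56 and 1.37.

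The 10 genes that led the contrast outside the score came in part from those lists. Fam83d, a spindle protein of the spindle list, had log2 ratios of 2.32 and 2.41 in the SG and the control library. Outside the lists, Kpna2, an importin of nuclear transport, had 2.65 and 2.16, and Sapcd2, known for spindle orientation, 2.61 and 2.31. So did Tnfaip8l1 (2.40 and 2.21), Miip (2.19 and 2.22) and Cep89, a protein of the centriole (2.39 and 2.17). The others were Aurka, Ube2c, Cdc25c and Hmmr, given above.

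Genes of the S phase lay on the other side. Of 32 measured DNA replication genes (40 listed), 25 were lower in the members of both libraries, against 36.7% of all genes measured, with medians of -0.43 and -0.41. Mcm6, a subunit of the replicative helicase, took 33.1 CPM in members and 81.8 CPM in the rest of the SG library, and 51.4 and 107 CPM in the control library. Pcna, the sliding clamp, took 71.0 against 137 CPM and 96.8 against 173 CPM. E2f1, the transcription factor of S phase entry, was past 2-fold lower in both, at 16.3 against 50.7 CPM and 22.4 against 50.4 CPM. Rrm2, the small subunit of ribonucleotide reductase, went against its list and was higher in members, at 138 against 102 CPM and 230 against 160 CPM.

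Along the whole range of the score the lists reached their highest levels at different scores. In gated cells with a score of 0 the 21 listed spindle genes together took 155 CPM in each library, and in the bin of members with the highest scores 3000 CPM in the SG and 3109 CPM in the control library. The DNA replication genes were highest well below the limit, in cells with scores of about 0.0131% to 0.0583% of UMIs, at 2699 CPM in the SG and 3334 CPM in the control library. In the highest members they were at 1167 and 1557 CPM, and in cells of score 0 at 1046 and 1380 CPM. Pcna did likewise, with 201 and 248 CPM at its highest and 55.1 and 69.2 CPM in the highest members. Ube2c took 8.54 and 7.90 CPM at score 0 and 2359 and 2250 CPM in the highest members.

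**Figure D3:**
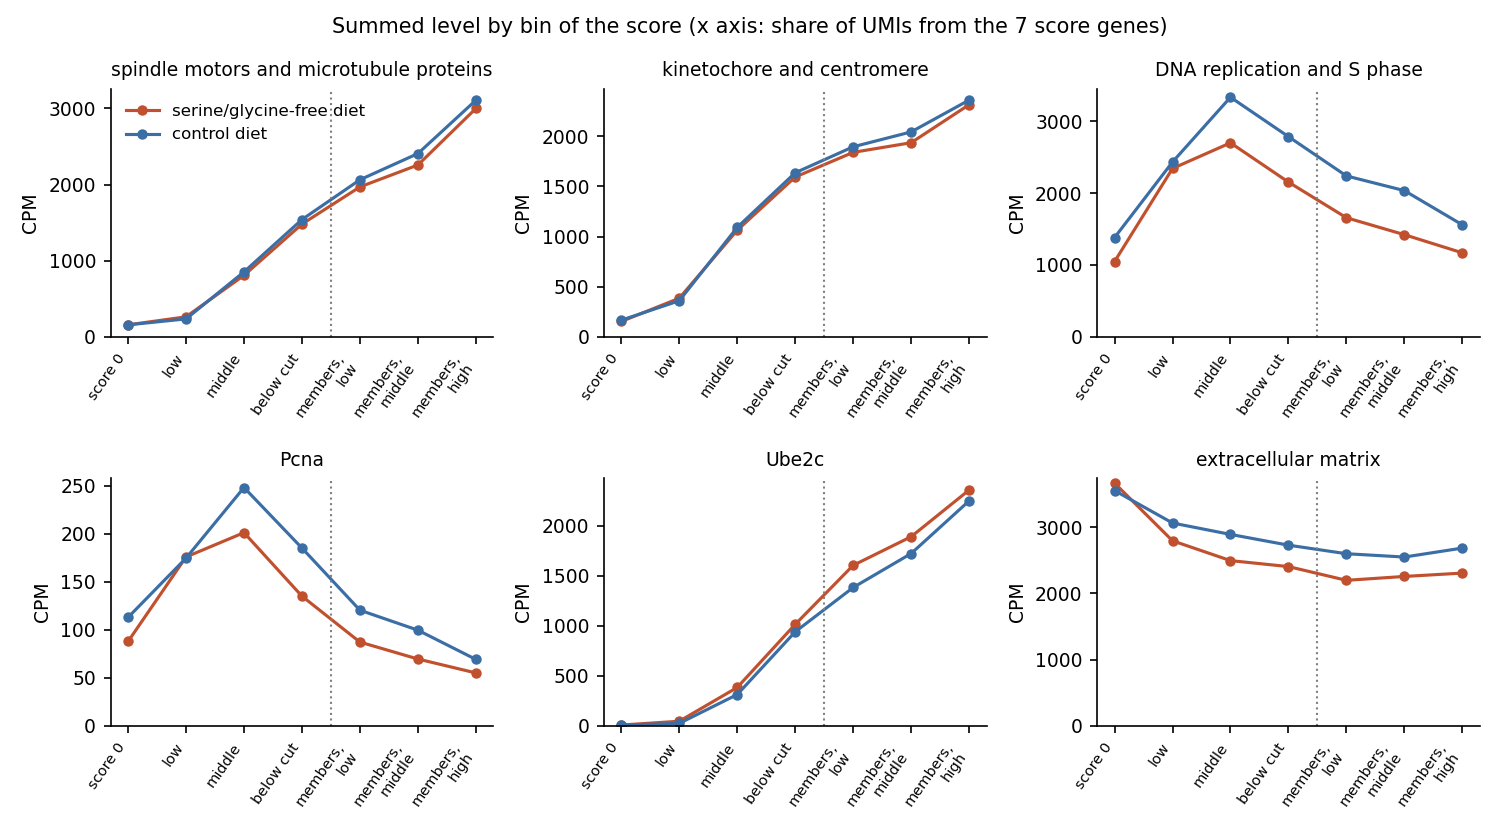
Summed level (vertical axis, CPM) of 4 gene lists and of Pcna and Ube2c over 7 bins of the score (horizontal axis, low to high) in the SG and the control library; the dotted line marks the limit of the G2/M group. Spindle genes climb to 3000 and 3109 CPM, while DNA replication genes are highest in the middle bin, at 2699 and 3334 CPM, and lower among members.

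Several lists outside the cell cycle were mostly lower in members. All 13 measured glycolysis genes were lower in the members of both libraries (medians -0.20 and -0.21), as were 11 of 12 hypoxia targets (-0.35 and -0.25), 12 of 13 immediate early genes (-0.49 and -0.22) and 10 of 13 extracellular matrix genes (-0.35 and -0.18), against the same 36.7% of all genes. Ndrg1, a hypoxia target, took 165 CPM in members and 342 CPM in the rest of the SG library, and 82.5 and 174 CPM in the control library. The heat shock list was not lower as a whole: 5 of its 12 measured genes were lower and 4 higher in both libraries, with medians of -0.02 and -0.05. Cryab, a small heat shock protein of that list, took 34.3 against 101 CPM and 20.5 against 69.5 CPM. Cebpd, a transcription factor of the acute phase, took 156 against 392 CPM and 44.6 against 94.5 CPM.

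The rest of the 10 lowest genes were Mcm6 and Pcna, given above, Gstm1, a glutathione transferase, Ccl2, a chemokine that attracts monocytes, Slurp1, Thbs2 (thrombospondin 2) and Ccnd3 (cyclin D3), with log2 ratios between -1.53 and -0.69. Ccl2 took 35.9 CPM in members and 113 CPM in the rest of the SG library, and 56.1 and 95.6 CPM in the control library. Fibroblast markers moved with the matrix genes. The 7 together, most of it Dcn (decorin), took 280 CPM in members and 565 CPM in the rest of the SG library, and 252 and 305 CPM in the control library. Dcn had a UMI in 58.1% of SG and 61.6% of control members, and in 61.0% and 59.1% of the rest. Lum had a UMI in 1.73% of SG and 3.60% of control members, and in 4.80% and 3.59% of the rest. Pi16 had one in 1.16% and 1.33% of members, and in 2.30% and 2.28% of the rest. For Col14a1 the shares were 1.45% and 0.758% of members, and 1.20% and 1.06% of the rest. Whether the sum comes from cells of another type was not tested. The part of fibroblasts in the matrix values was not tested. Cdkn1a, the Cdk inhibitor p21, differed little, with log2 ratios of -0.16 and -0.15.

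The promoters of mitotic-list genes that stood high in members often held letters that the score did not use. Those of the high genes outside these lists were not counted by themselves. Among the mitotic-list genes at least 2-fold higher in both libraries, 41 of 63 with a promoter in the table (65.1%) held TTTGAA, and 34 (54.0%) held TTTGAA and CCAAT. Among the mitotic-list genes measured but not 2-fold higher, 5 of 17 (29.4%) held TTTGAA. Of the DNA replication genes 6 of 33 (18.2%) did, of all measured genes 648 of 4416 (14.7%), and among all 27025 listed genes 20.2% did. The CCAAT letters were more widespread: 71.4% of the 2-fold mitotic genes, 66.7% of the DNA replication genes and 43.4% of all measured genes held it.

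Members differed among themselves. In each library they were parted at the median share that Cdc20, Ccnb1, Plk1 and Kif20a took of the score UMIs, which gave 173 and 173 cells in the SG library and 265 and 263 in the control library, with Cenpf, Cenpe and Aspm weighing more in the second set of each. The first set (Cdc20-rich) had a lower median score than the second (Cenpf-rich), at 0.210% against 0.246% of UMIs in SG and 0.216% against 0.232% in control. Its cells were also shallower, at medians of 31130 against 33128 and 29252 against 32080 UMIs. Of the 10 genes highest in the Cdc20-rich members of both libraries, 5 are known for ribosome assembly. They were singled out after their values were seen, and no list of such genes was counted. Nip7, a factor of ribosome assembly, took 85.1 CPM in the Cdc20-rich and 54.9 CPM in the Cenpf-rich members of the SG library, and 92.0 and 62.9 CPM in the control library. Rrs1, Rrp7a, Mrto4 and Mak16, the other 4, had log2 ratios between 0.35 and 0.43. By comparison 35.4% of all genes were higher in the Cdc20-rich members of both.

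Hypoxia targets and glycolysis genes were higher in the Cenpf-rich members, as were several mitotic lists and the extracellular matrix genes. Ero1l, the disulphide-forming oxidase of the endoplasmic reticulum and a hypoxia target, took 102 CPM in the Cdc20-rich and 248 CPM in the Cenpf-rich members of the SG library, and 95.9 and 173 CPM in the control library. Fn1 (fibronectin) took 183 against 347 CPM and 273 against 433 CPM. All 12 hypoxia targets and 12 of 13 glycolysis genes were lower in the Cdc20-rich members of both libraries, against 41.4% of all 5561 genes measured there. So were 19 of 21 spindle genes, 18 of 19 of the chromosome structure list, 13 of 14 passenger and cytokinesis genes and 10 of 13 matrix genes. Spindle genes also rose with the score among members, and the Cdc20-rich members had the lower score. The part of that difference in these counts was not tested. Purine synthesis was higher in the Cdc20-rich members of both in 6 of 10 genes, and cholesterol synthesis in 10 of 13, against 35.4% of all genes. The 10 genes highest in the Cdc20-rich members had a median span in the genome of 7.94 kb, the 8 of 10 lowest genes with an annotated span one of 379.9 kb, and all measured genes one of 21.1 kb. These spans describe the named genes, and long genes as a class were not counted.

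The last comparison set the diets against each other within the G2/M group, beside the same ratio in the rest of the gate. In members 52 genes (0.944% of 5508) were at least 1.5-fold higher in the SG library and 26 (0.472%) at least 1.5-fold lower. In the rest of the gate 103 (1.87%) and 35 (0.635%) were. The ratio was above 1 for 34% of genes in members, with a median gene at -0.07 (log2), and for 31% in the rest, with a median gene at -0.09; centring on the median makes both 50%. The 2 ratios come from different cells of the same 2 libraries.

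**Figure D4:**
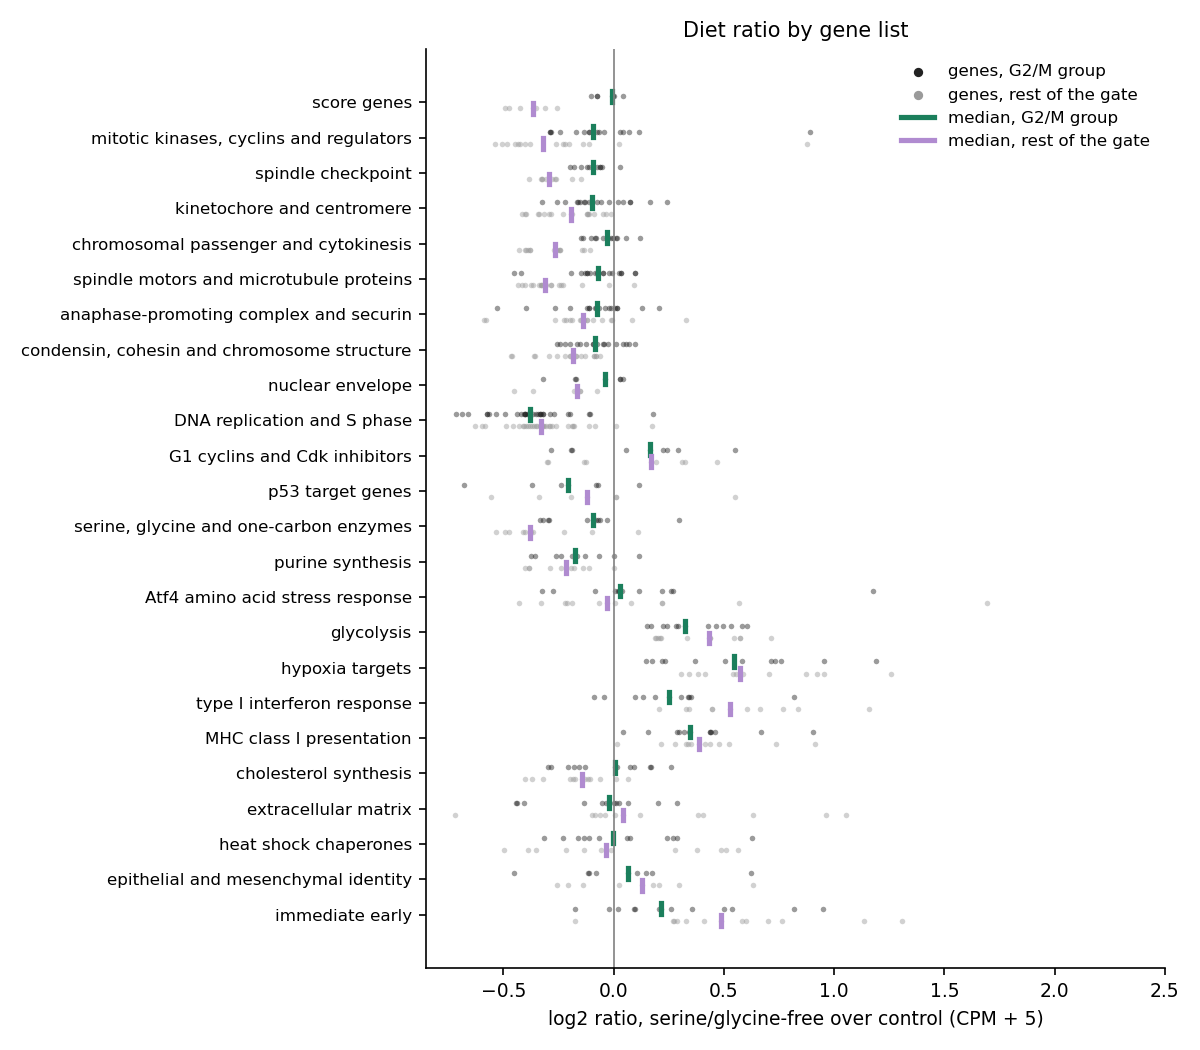
Log2 ratio of the SG over the control library (horizontal axis) for the measured genes of 24 lists (vertical axis), in the G2/M group (upper row of points, green median) and in the rest of the gate (lower row, lilac median). Mitotic lists lie near 0 in the group, with score genes at a median of -0.01 against -0.37 in the rest, while hypoxia targets lie at 0.55 and 0.57.

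The mitotic genes were close to equal between the libraries once only members were compared. The score genes had a median of -0.01 in members and -0.37 in the rest of the gate, and members were chosen on these genes. The other mitotic lists were also higher in members than in the rest, so their closeness between libraries is not independent of that choice. For lists outside the score, the medians were -0.09 in members and -0.32 in the rest for kinases and cyclins, -0.07 and -0.31 for spindle motors, -0.03 and -0.27 for passenger and cytokinesis genes and -0.10 and -0.19 for kinetochore genes. The passenger list was above 0 in members after centring on the median gene (0.04). Ube2c was 1.09 (1.07 to 1.11) times as high in SG as in control members, Aurka 0.813 (0.767 to 0.862) times and Fam83d 0.723 (0.678 to 0.771) times. Wee1, the kinase that holds back Cdk1, was the mitotic regulator that stood out, at 45.7 CPM in SG and 22.3 CPM in control members, a ratio of 2.04 (1.79 to 2.34), and at 26.8 and 12.3 CPM in the rest.

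DNA replication genes were lower in the SG library in and outside the group. Of 32 measured genes, 31 had a ratio below 1 in members, against 66% of all genes, with a median of -0.38, and 30 did in the rest, against 69% of all genes, with a median of -0.33. Rrm2 took 138 CPM in SG members and 230 CPM in control members, a ratio of 0.601 (0.566 to 0.637). Mcm2 took 17.8 and 31.8 CPM, a ratio of 0.560 (0.474 to 0.660). Fbxo5, the inhibitor of the anaphase-promoting complex that is made from S phase on, took 59.4 and 87.9 CPM, and Ube2s, the chain-extending enzyme of that complex, 587 and 776 CPM.

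Enzymes of serine and purine synthesis showed small ratios in members. The 11 measured serine, glycine and one-carbon genes (17 listed) had a median of -0.09 in members and -0.38 in the rest of the gate. Single genes of that list ran from -0.33 to 0.30 in members and from -0.54 to 0.11 in the rest. Phgdh, the first enzyme of serine synthesis, took 480 CPM in SG and 511 CPM in control members, a ratio of 0.938 (0.906 to 0.970), and 411 and 548 CPM in the rest. Psat1, the next enzyme, took 236 and 247 CPM in members and 152 and 198 CPM in the rest. Shmt2, the mitochondrial enzyme that splits serine into glycine and a one-carbon unit, took 152 and 188 CPM in members, a ratio of 0.810 (0.763 to 0.859). In the rest it took 134 and 196 CPM. Asns, asparagine synthetase and a target of the stress factor Atf4, took 185 and 183 CPM in members and 144 and 195 CPM in the rest. Thus Phgdh, Psat1 and Asns lay nearer to equality in members than in the rest. The purine synthesis genes had medians of -0.18 in members and -0.22 in the rest, and single genes ran from -0.38 to 0.11 in members.

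The 10 genes furthest above the control library in members included 2 metallothioneins and known targets of the glucocorticoid receptor. These groups can overlap, and no list was counted for them. Mt2, a metal-binding protein, took 1412 CPM in SG and 396 CPM in control members, a ratio of 3.56 (3.46 to 3.67), and 2135 and 498 CPM in the rest of the gate. Mt1 took 4030 and 1343 CPM in members, a ratio of 3.001 (2.95 to 3.05). Cebpd took 156 and 44.6 CPM, a ratio of 3.51 (3.22 to 3.83). Among the glucocorticoid targets were Tsc22d3, with a ratio of 2.90 (2.67 to 3.15), and Sgk1, a kinase, with 2.55 (2.39 to 2.73). Fkbp5, a chaperone of that receptor, had 2.64 (2.39 to 2.91). The others of the 10 highest were Prune2, Bcl2l1, which blocks cell death, Ddit4, which restrains mTORC1, and Fmnl2, a formin, at ratios between 2.24 and 2.60. In all 10 genes the ratio was above 1 in the rest of the gate as well, with log2 values between 0.95 and 2.09.

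**Figure D5:**
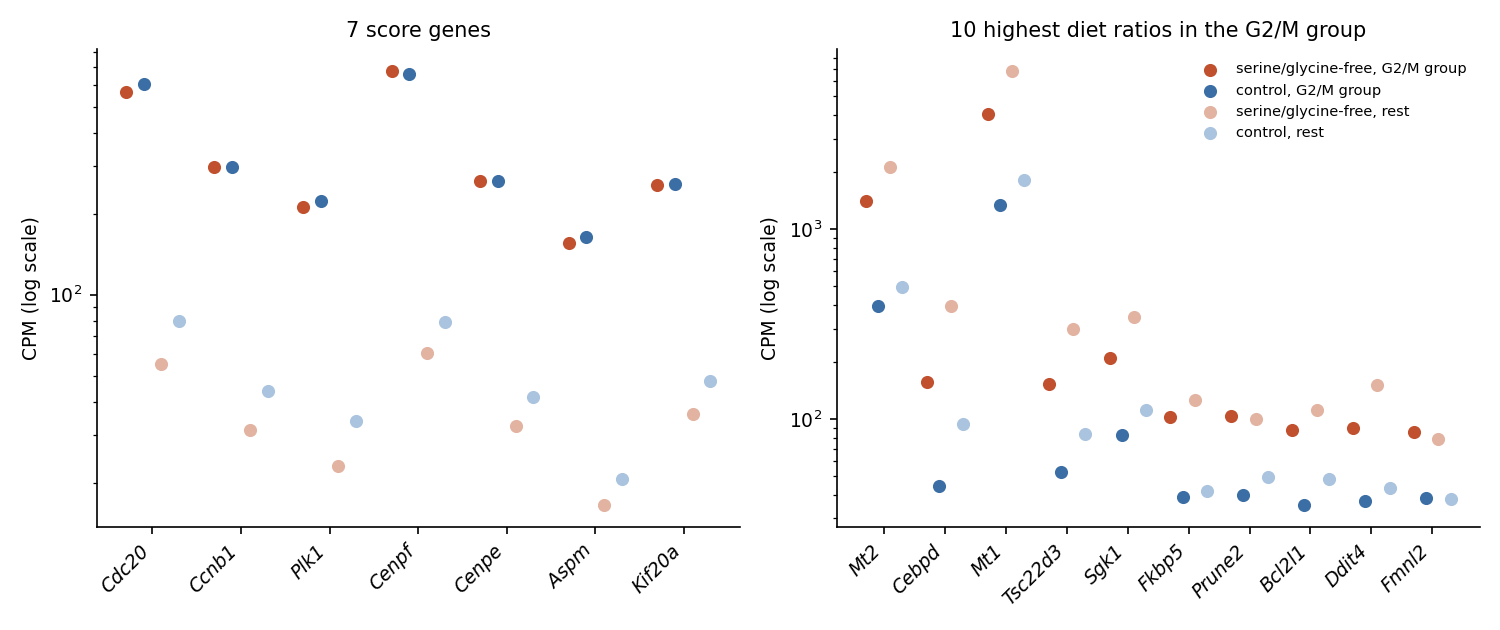
Level (vertical axis, CPM on a log scale) of the 7 score genes (left) and of the 10 genes with the highest ratio of SG over control members (right), in the G2/M group (dark points) and in the rest of the gate (pale points) of the SG (red) and the control library (blue). The score genes nearly coincide between libraries within the group, while Mt2 stands at 1412 against 396 CPM and Cebpd at 156 against 44.6 CPM.

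Hypoxia, glycolysis and antigen presentation genes had ratios above 1 throughout. All 12 hypoxia targets were above 1 in members (median 0.55, 5 of them past 1.5-fold) and in the rest (0.57). Car9, the carbonic anhydrase of hypoxic cells, took 37.2 CPM in SG and 13.5 CPM in control members, a ratio of 2.76 (2.34 to 3.27), and Ndrg1 165 and 82.5 CPM. All 13 glycolysis genes were above 1 (medians 0.32 in members and 0.43 in the rest), among them Pgk1, phosphoglycerate kinase, at 1817 and 1193 CPM in members. All 13 genes of MHC class I presentation were above 1 (0.35 and 0.39), among them H2-T23 at 36.8 and 17.3 CPM and Psmb9, a subunit of the immunoproteasome, at 205 and 127 CPM. Against these stands the 34% of all genes above 1 in members.

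Interferon and immediate early genes had a smaller median in members than in the rest. The 11 measured type I interferon response genes had medians of 0.25 in members and 0.53 in the rest, and the difference between the 2 ratios was below 0 for 11 of 11, against 43.1% of all genes. Ifit1 took 37.2 and 19.0 CPM in SG and control members and 70.1 and 28.7 CPM in the rest. The 13 immediate early genes had medians of 0.21 and 0.49, with 12 of 13 differences below 0. Dusp1, the phosphatase that shuts off MAP kinases, took 422 and 216 CPM in members and 846 and 339 CPM in the rest. The class II antigen genes, markers of other cells, took 39.6 and 13.9 CPM in members and 66.0 and 18.02 CPM in the rest, and their part in these values was not tested. Cd274, which encodes PD-L1, took 19.0 CPM in SG and 11.9 CPM in control members, a ratio of 1.59 (1.31 to 1.94), and 24.5 and 11.8 CPM in the rest.

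The 10 genes with the lowest diet ratio in members came from no common list. Anxa8, an annexin, took 39.7 CPM in SG and 82.7 CPM in control members, a ratio of 0.480 (0.431 to 0.535). Grem1, an antagonist of BMP signals, took 45.3 and 87.7 CPM, and Hist1h2bc, a histone H2B gene, 35.8 and 65.7 CPM. The insulin-like growth factor binding proteins Igfbp6 and Igfbp4 and the Wnt antagonist Dkk2 had ratios of 0.614, 0.614 and 0.640. Tmem119, Cyb5r1 and Eno3 lay between 0.599 and 0.639. Rrm2, the last of these 10 genes, is given above.

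The genes whose diet ratio differed most between members and the rest are named here. The log2 ratio of members exceeded that of the rest by 0.49 for Kpna2, by 0.45 for Asns and by 0.42 for Hmmr, Cenpa and Gcat, the last an enzyme of glycine metabolism. The difference was -0.81 for Ccl2 (-0.58 in members and 0.23 in the rest), -0.76 for Dcn (0.20 and 0.96) and -0.73 for Mgp, a calcification inhibitor (-0.79 and -0.06). Hist1h2bc (-0.79 and -0.08) and Hist1h1c (-0.12 and 0.54), genes of histones H2B and H1, completed the lower end. Kpna2, Hmmr and Cenpa rose with the score, so their differences are not independent of how members were chosen. A difference above 0 was found for all 7 score genes, 14 of 14 passenger and cytokinesis genes and 15 of 16 kinases and cyclins. It was found for 17 of 19 kinetochore genes, against 3135 of all 5508 genes, while 43.1% of all genes were below 0. The anaphase-promoting complex list, with 10 of 18 above 0, lay near the share of all genes. These differences were not tested, since each rests on 1 library per diet. Krt20, which the gate used, took 230 and 147 CPM in SG and control members.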

How the data were processed

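Each diet, SG (without serine and glycine) or control, gave 1 gene expression library of mouse subcutaneous tumours. The labels contradict each other: organism, source and design say mouse tumour, but the extraction protocol is written for human heart. The authors deposited UMI counts per gene and cell barcode, made with Cell Ranger 7.1.0 per the file headers, but with Cell Ranger 2.2.2 on mm10 per the submitters' processing notes. The deposited contig tables were used only to mark barcodes with a T cell receptor. Symbols listed more than once were summed (32285 features, 32245 symbols), and 651 receptor and immunoglobulin genes were left out of CPM.

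Barcodes under 300 genes or over 20% mitochondrial UMIs were dropped. The Scrublet method (scanpy 1.11.5) marked 2 SG and 7 control cells, which means that the call did not work, so doublets were left in. Of the members 2 and 7 had a doublet score over 0.25 (0.578% and 1.33%), against 0.820% and 1.53% of the other gated cells.

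UMIs were summed over the cells of a class and scaled to CPM, and log2 ratios were taken of CPM plus 5. A gene was measured if it averaged 20 CPM or more over the 4 classes. Shares carry Clopper-Pearson intervals, and ratios carry intervals from the exact conditional binomial. For shares of cells with a UMI every cell was thinned to 5000 UMIs. With 1 library per diet no test was possible. Named genes averaged 50 CPM or more and had 30 UMIs in 1 class or more: per contrast the 10 highest and 10 lowest, the 5 highest and 5 lowest in members minus rest, up to 4 per list, and a fixed set. The list part of the rule takes genes from 20 CPM up. The members and lists were chosen with earlier results of these data known. The steps were tested on simulated data. Python 3.11.15, numpy 2.4.6, scipy 1.17.1 and pandas 2.3.3 were used.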

Additional observations from a re-analysis of the deposited data

Results flagged for a closer look

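For 7 named genes the members lay on opposite sides of the other gated cells in the 2 libraries, with both counting-error intervals excluding a ratio of 1. Other named genes also had opposite signs, but with an interval that held 1 in at least 1 library. These opposite directions were not tested, and each is the sign of 1 library per diet. Asns had a log2 ratio of members over rest of 0.36 in the SG and -0.10 in the control library. Phgdh had 0.22 and -0.10, Shmt2 0.18 and -0.06, and Hspd1, a mitochondrial chaperone, 0.064 and -0.12. The other 3 ran the opposite way: Hist1h1c had -0.36 and 0.29, Ccng1, a target of p53, -0.22 and 0.12, and B2m, the light chain of MHC class I, -0.031 and 0.032.

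T cell receptor contigs, which the comparisons did not use, were listed for 7 gated cells outside the G2/M group in the SG library and for 7 in the control library. None was listed for the 346 and 528 members.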

How the results depend on the processing

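The ratio of the G2/M share, 0.585 as reported, stayed below 1 under all 17 alternatives, with a lowest value of 0.580 (score without Kif20a) and a highest of 0.693 when each cell was thinned to 5000 UMIs before the gate and the score. Scoring on thinned cells while gating on all UMIs, and leaving out each score gene in turn, were added after seeing the data and gave 0.628 and 0.580 to 0.605. The count of genes at least 2-fold higher in the members of both libraries, 156 as reported with the 7 score genes among them, ran between 152 and 182. The 7 genes at least 2-fold lower became 22 with thinning, 11 with a pseudocount of 1 CPM, 12 with a mean over cells and 15 with no filter on low values. Between diets within members, the 52 genes at least 1.5-fold higher became 171 with thinning, 89 with a mean over cells and 85 with no filter. The 26 genes at least 1.5-fold lower became 197 with thinning, 47 with the top 5% of cells, 47 with a pseudocount of 1 CPM and 69 with no filter. The share of genes above 1 in that comparison was 34.0% as reported, 41.2% with thinning, 41.5% with no filter and 50% when centred on the median gene. The cause of these moves was not tested. Thinning leaves 258 SG and 264 control members, and counts per gene are then small. Some list medians near 0 changed sign. The medians further than 0.1 from 0 that did so were both of members over rest: G1 cyclins and Cdk inhibitors in the SG library, at -0.16 as reported and 0.02 with the top 20% of cells, and the serine and one-carbon list in the control library, at -0.13 as reported and 0.0996 with thinning. Of the list medians 518 values stayed and 218 moved, and of the named genes 3980 stayed and 2132 moved. No paired analysis was possible because each diet is 1 library, and for the same reason no replicate could be left out.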

Other observations

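Cholesterol synthesis genes also differed among the members. In the Cdc20-rich members 10 of 13 measured genes were higher than in the Cenpf-rich members of both libraries, against 35.4% of all genes. Their medians were 0.22 (log2) in the SG and 0.21 in the control library, against medians of -0.01 and -0.02 for all genes measured. Tmem97, a sterol-regulated membrane protein, took 115 CPM in the Cdc20-rich and 84.8 CPM in the Cenpf-rich members of the SG library, and 124 and 91.2 CPM in the control library. Histone H1 gene Hist1h1b went the other way, at 81.3 against 139 CPM and 104 against 180 CPM.

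Of the heat shock list, which was mixed, 2 chaperones of the endoplasmic reticulum were higher in members than in the rest of the gate in both libraries. Hsp90b1 took 1192 CPM in members and 693 CPM in the rest of the SG library, and 1336 and 909 CPM in the control library. Hspa5 took 686 against 529 CPM and 806 against 676 CPM. The MHC class I gene H2-Q4 was also higher in members, at 542 against 368 CPM and 428 against 275 CPM, and Cdkn2c, a Cdk inhibitor, at 100.3 against 40.9 CPM and 115 against 45.4 CPM.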
